A study of Homo sapiens with 3 samples.

Results

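The unfolded protein response and the integrated stress response were followed through 43 genes, found by symbol among the 57268 gene identifiers of the count table. Each of the 43 symbols matched 1 identifier. The genes fall into 5 sensors, 19 genes of the arm controlled by ATF4 and CHOP, 5 genes of serine and one-carbon synthesis, and 14 genes of the chaperone and protein-quality arm of the endoplasmic reticulum (ER). The set was chosen by name and pathway.

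When unfolded proteins gather in the ER, the sensors PERK, IRE1 and ATF6 start separate signals. PERK and its relatives HRI, GCN2 and PKR phosphorylate the initiation factor eIF2, which slows translation in general while favouring translation of ATF4. ATF4 then switches on genes of amino acid supply, and with its target CHOP a set of genes linked to prolonged stress. IRE1 splices the XBP1 message and ATF6 is cut in the Golgi, and both factors then raise ER chaperones and the machinery that discards misfolded proteins. Much of this signalling is by phosphorylation, splicing, cleavage and translation, none of which gene-level read counts can show.

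The 3 libraries came from HEK 293T cells (HEK293 in the sample titles), a human embryonic kidney line that carries the SV40 large T antigen, with 1 library per group: cells overexpressing ADAR2 and SRSF9 together, cells overexpressing only ADAR2, and wild-type control cells with no overexpression. ADAR2, encoded by ADARB1, is an RNA editing enzyme, and SRSF9 is a splicing factor. The study asked about SRSF9 and editing at ADAR2 target sites. The labels name no empty-vector control, so an effect of the proteins and one of introducing a plasmid cannot be told apart, and with 1 library per group no difference has a replicate check and no test was possible.

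Total read counts were 97875935 in the ADAR2 plus SRSF9 library, 132887974 in the ADAR2 library and 152878282 in the control. ADARB1 stood at 13647, 16100 and 113.6 counts per 1000000 reads (CPM) in that order of libraries, and SRSF9 at 18288, 369 and 372 CPM, each high in the libraries whose labels name it. All 11 HEK293-expressed marker genes had reads in every library, with sums of 844, 892 and 884 CPM. PAX8 was nearly absent, at 9, 1 and 5 reads. The largest parts of the sums were NEFM (298, 332 and 299 CPM) and VIM (253, 265 and 284 CPM). Among markers of other cells, the 14 erythroid genes summed to 1342, 17.97 and 15.88 CPM, of which HBB and HBD made up nearly all in the ADAR2 plus SRSF9 library, while AHSP had 1, 0 and 0 reads. The 6 leukocyte, 6 fibroblast and 6 other epithelial markers summed to 5.31, 39.9 and 9.04 CPM in the ADAR2 plus SRSF9 library, to 4.71, 34.3 and 8.12 CPM in the ADAR2 library and to 4.64, 35.4 and 8.82 CPM in the control. KRT5 and TFF1 were at 0 reads in all 3 libraries. PTPRC had 0, 5 and 6 reads and DCN 0, 8 and 14. The part of the globin reads in any difference described here was not tested.

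Short DNA elements known from genes of this response were looked for in the promoter windows, since ATF6, XBP1 and ATF4 are known to bind such elements. The windows were RefSeq promoters on GRCh38.p14, each 250 bases before to 50 bases after an annotated start, and 39 of the 43 genes had at least 1. The ER stress response element ERSE (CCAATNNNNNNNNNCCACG, either strand) was in 4 of the 53 windows of these genes (7.55%), against 27 of all 35116 windows (0.0769%). The related ERSE-II (ATTGGNCCACG, either strand) was in 3 of the 53 (5.66%), against 0.0541% of all windows. The C/EBP-ATF response element, CARE (TGATGNAA, either strand), was in 7 of the 53 (13.2%), against 3.62% of all windows. These elements were first described in genes of this kind, so the shares are a description of the set, and a match is not evidence of binding. The 3 motifs do not overlap each other in the stretches shown.

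The ERSE and ERSE-II stretches are shown because the genes that carry them did not stand on one side of the control, as described further on. Each stretch lies before the start site and is written in the gene's direction of transcription, with the motif in capitals; motifs on the opposite strand appear as their reverse complement.
HSP90B1, chr12:103930204-103930246, plus strand: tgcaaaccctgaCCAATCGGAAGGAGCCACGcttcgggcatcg
HSP90B1, chr12:103930309-103930351, plus strand: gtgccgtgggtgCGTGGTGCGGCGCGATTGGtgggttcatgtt
CALR, chr19:12938372-12938414, plus strand: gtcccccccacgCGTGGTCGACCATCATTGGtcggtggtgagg
XBP1, chr22:28800591-28800633, minus strand: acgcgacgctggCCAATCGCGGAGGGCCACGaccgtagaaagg
CRELD2, chr22:49918542-49918584, plus strand: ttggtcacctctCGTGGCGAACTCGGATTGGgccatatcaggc
HYOU1, chr11:119057368-119057402, minus strand: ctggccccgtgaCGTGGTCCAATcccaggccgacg
HYOU1, chr11:119057262-119057296, minus strand: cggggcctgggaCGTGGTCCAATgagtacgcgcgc
HERPUD1, chr16:56932013-56932047, plus strand: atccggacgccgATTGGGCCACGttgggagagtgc
SDF2L1, chr22:21642102-21642136, plus strand: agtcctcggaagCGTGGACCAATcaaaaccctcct

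The CARE stretches below belong to CHAC1 and PPP1R15B, which had the highest and the lowest ratio of the set in ADAR2 plus SRSF9 against control, and to 4 genes between them. They are written in the same way, with TGATGNAA or its reverse complement in capitals. The CARE of the other carrier, SLC3A2, lies after the start site and is not shown. SLC3A2 had a log2 ratio of 0.22 in that comparison.
CHAC1, chr15:40953250-40953281, plus strand: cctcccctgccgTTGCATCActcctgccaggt
PPP1R15B, chr1:204412025-204412056, minus strand: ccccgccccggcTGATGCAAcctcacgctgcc
ASNS, chr7:97872457-97872488, minus strand: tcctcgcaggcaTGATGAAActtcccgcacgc
ATF3, chr1:212565204-212565235, plus strand: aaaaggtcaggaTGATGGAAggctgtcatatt
CEBPG, chr19:33374059-33374090, plus strand: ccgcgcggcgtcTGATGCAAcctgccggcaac
HERPUD1, chr16:56931954-56931985, plus strand: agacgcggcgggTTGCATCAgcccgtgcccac

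Nearly all of the 43 genes were expressed in all 3 libraries. Of the 43 genes, 42 had a mean of at least 1 CPM over the 3 libraries, from 6.9 to 929.9 CPM, and are called measured. NUPR1, a small stress-induced chromatin protein, was not, with 39 reads in the ADAR2 plus SRSF9 library, 86 in the ADAR2 library and 62 in the control. Per kilobase of the longest transcript, ATF4 was the most abundant, at 472, 458 and 452 CPM per kilobase in the ADAR2 plus SRSF9, ADAR2 and control libraries. It was followed by the ER lectin chaperone CALR (312, 323 and 314 CPM per kilobase), by the ER member of the HSP90 family, HSP90B1 (254, 269 and 294), and by PHGDH, which opens the serine pathway (227, 207 and 200.1). The lowest measured level was that of the lipoprotein receptor VLDLR, at 1.26, 1.33 and 1.38 CPM per kilobase. Levels of different genes lay far further apart than the levels of 1 gene in the 3 libraries. Together the 43 genes took 0.625%, 0.637% and 0.631% of the reads of the ADAR2 plus SRSF9, ADAR2 and control libraries.

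**Figure D1:**
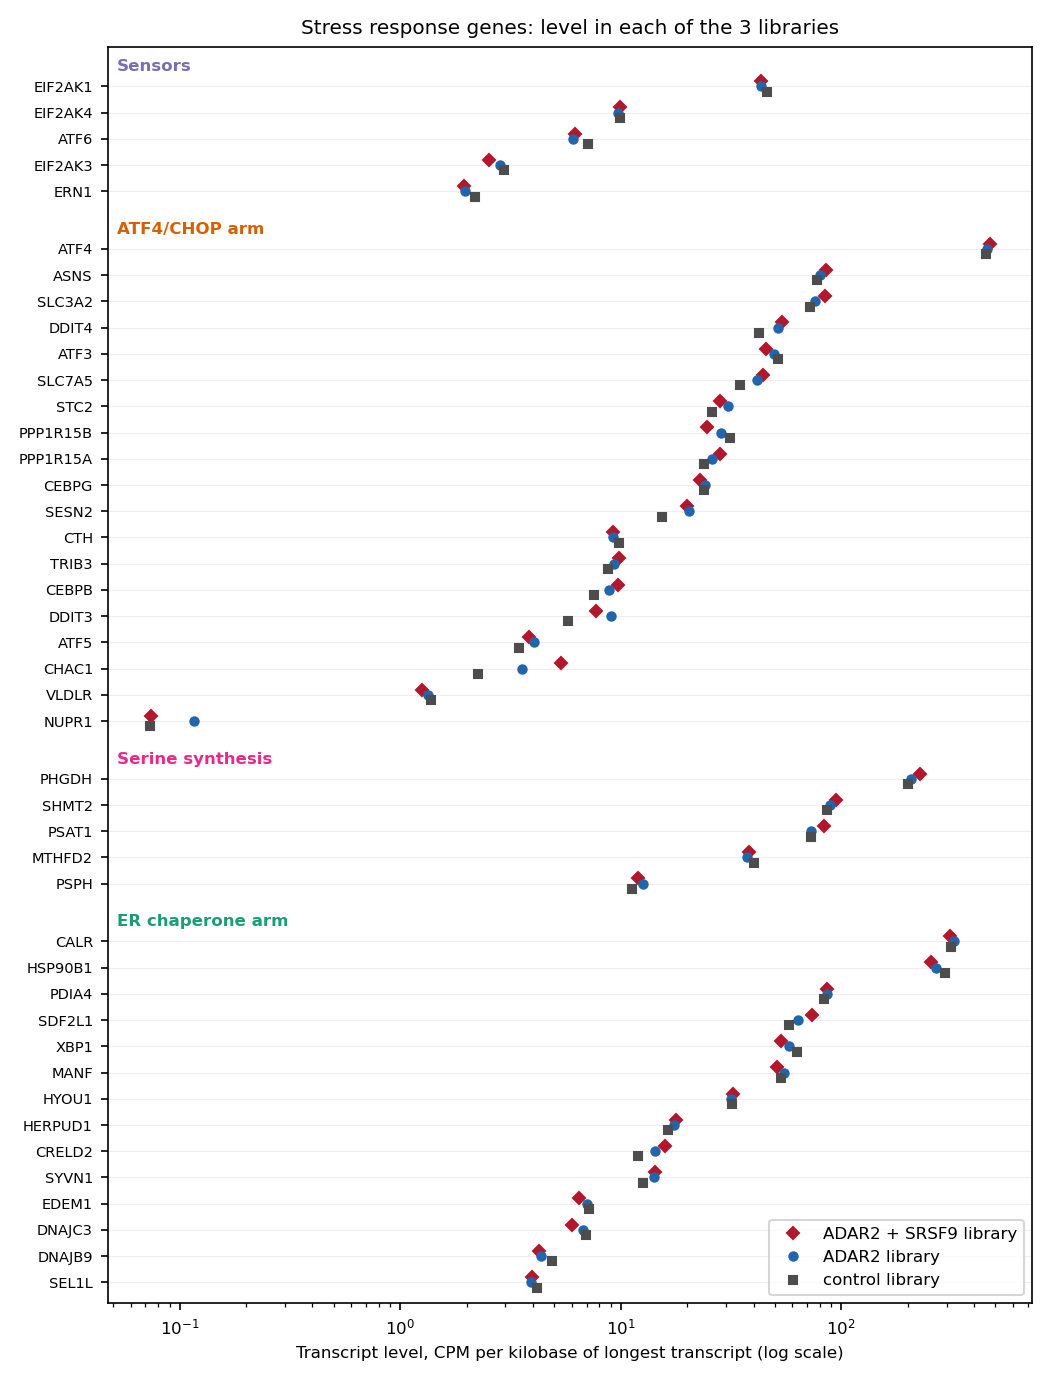
Transcript level of the 43 genes in the ADAR2 plus SRSF9 (diamonds), ADAR2 (circles) and control (squares) libraries, as CPM per kilobase of the longest transcript on a log axis, grouped by arm and ordered by mean level; 1 library per symbol, no error bars. The 3 symbols of a gene nearly coincide for most genes, and CHAC1, at 5.35, 3.59 and 2.25 CPM per kilobase, is spread most among the measured genes.

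Differences between libraries are given as the ratio of CPM with its 95% counting interval, which covers counting error only, or as the log2 of that ratio. A gene is called 1.5-fold or 1.2-fold apart when its ratio reaches that size and the interval excludes 1. Ratios in ADAR2 against control tended to be higher for transcripts rich in G and C across all genes, so each gene's GC content and its log2 ratio after removal of that trend are given where they matter. Of the 3 comparisons 2 share the control library, 2 the ADAR2 library and 2 the ADAR2 plus SRSF9 library, so values in different comparisons are not independent. In such bulk samples a change in every cell and a larger change in some of the cells cannot be told apart, nor can fewer cells of a kind and less RNA per cell.

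In the ADAR2 library against the control, 2 of the 42 measured genes were 1.5-fold higher, CHAC1 and DDIT3, and 0 were 1.5-fold lower. Over all 16072 genes measured, 0.622% were 1.5-fold higher and 0.641% lower. At 1.2-fold, 6 of the 42 (14.3%) were higher and 0 lower, against 7.43% and 6.45% of all genes. The 6 were CHAC1, DDIT3, SESN2, DDIT4 and SLC7A5 of the ATF4/CHOP arm and CRELD2 of the ER arm. With the GC trend removed the 6 became 3 (7.14%, against 5.25% of all genes), which were DDIT3, CHAC1 and SESN2. The median log2 ratio of the 42 genes was 0.04, beside -0.001 for all genes measured.

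With SRSF9 added, in the ADAR2 plus SRSF9 library against the ADAR2 library, 0 of the 42 genes were 1.5-fold higher or lower, against 0.871% and 2.52% of all genes. At 1.2-fold CHAC1 was the 1 gene called (2.38%), higher, against 5.72% of all genes higher and 8.21% lower. It was called with the GC trend removed too, where 4.52% of all genes were higher and 8.72% lower. The median log2 ratio was 0.008, beside 0.012 for all genes measured.

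In the ADAR2 plus SRSF9 library against the control, CHAC1 was the 1 gene 1.5-fold higher and 0 genes were lower, against 1.56% and 2.43% of all genes. At 1.2-fold, 8 of the 42 (19.0%) were higher and 1, PPP1R15B, was lower (2.38%), against 13.8% and 12.7% of all genes. The 8 were CHAC1, DDIT3, SESN2, DDIT4, SLC7A5 and CEBPB of the ATF4/CHOP arm, and CRELD2 and SDF2L1 of the ER arm. With the GC trend removed 4 were higher (9.52%, against 6.95% of all genes), which were CHAC1, DDIT3, CRELD2 and PSAT1. PPP1R15B was lower (2.38%, against 9.33% of all genes). The median log2 ratio was 0.06, beside -0.006 for all genes. In all, 33 of the 42 genes were within the 1.2-fold limits in each of the 3 comparisons. In ADAR2 plus SRSF9 against control alone, 33 of the 42 and 11810 of all 16072 genes were within them. The share of all genes within them in each of the 3 comparisons was not computed.

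**Figure D2:**
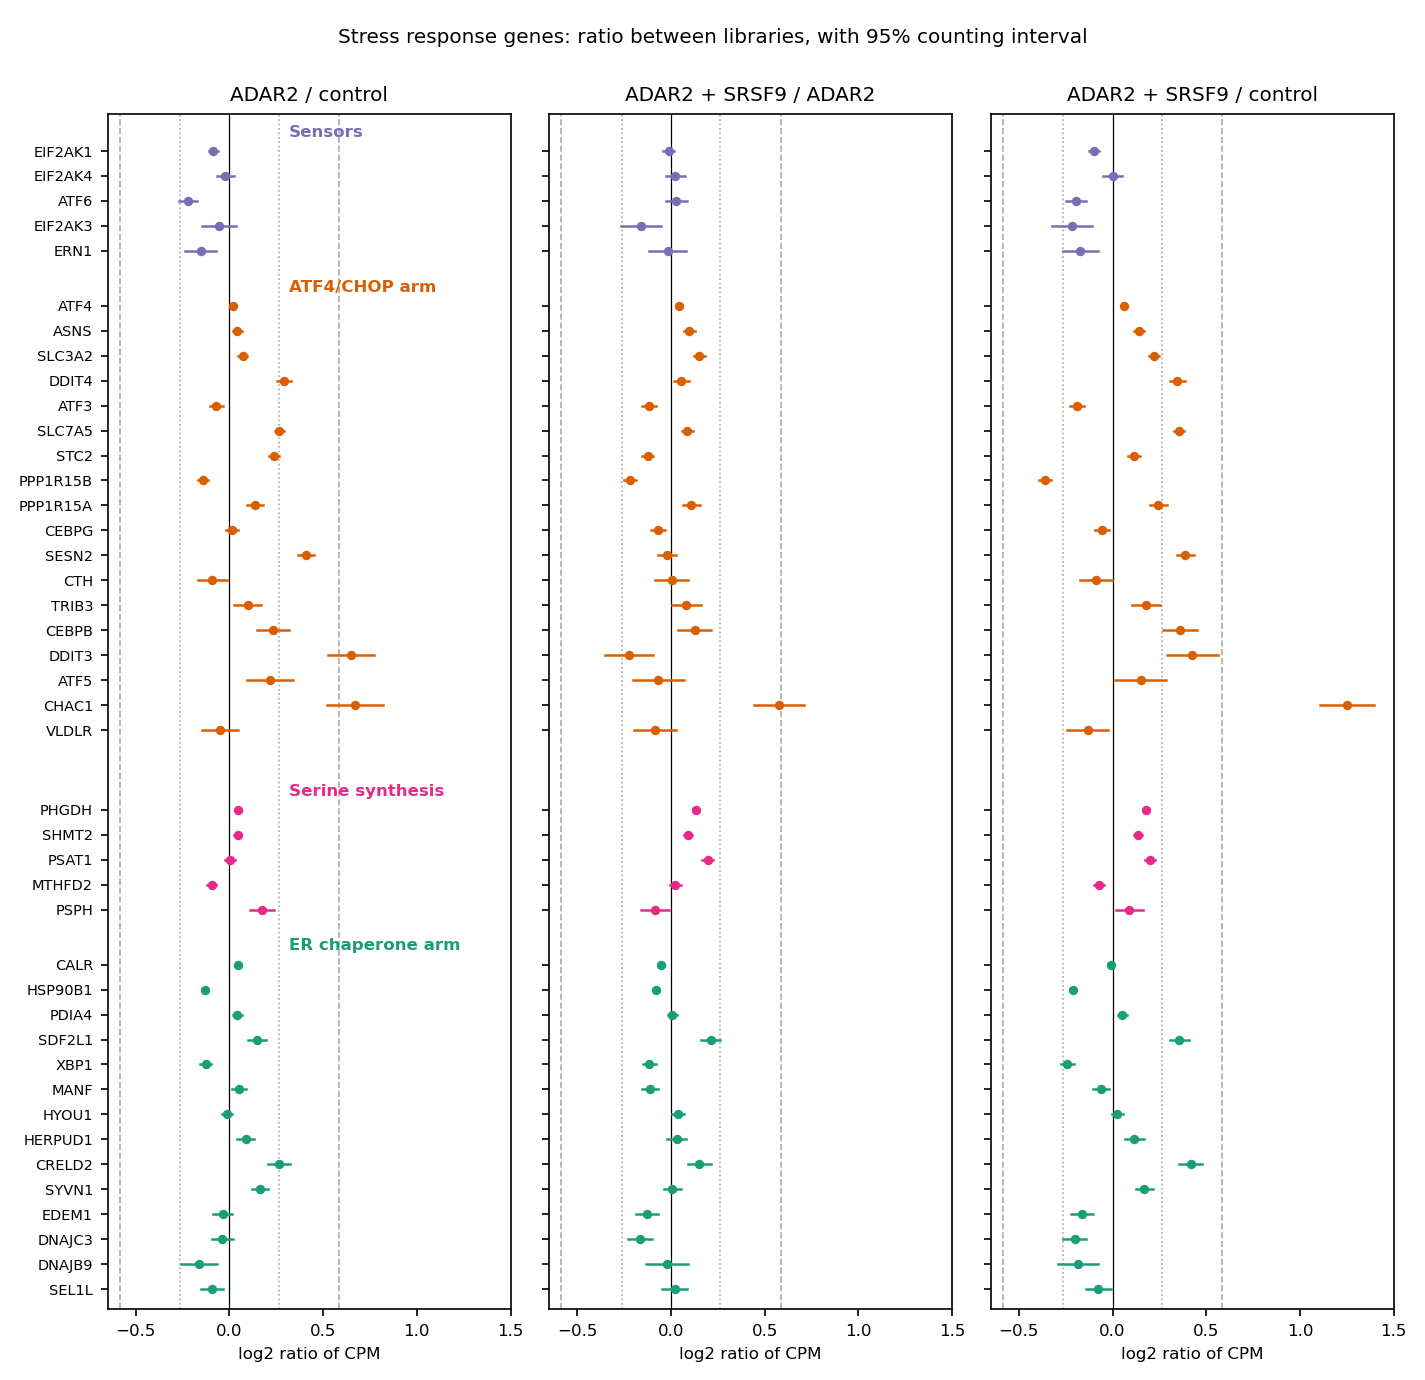
Log2 ratio of CPM for the 42 measured genes in ADAR2 against control (left), ADAR2 plus SRSF9 against ADAR2 (middle) and ADAR2 plus SRSF9 against control (right), with 95% counting intervals, coloured by arm. Dotted lines mark 1.2-fold and dashed lines 1.5-fold in either direction; CHAC1 (log2 ratios 0.67, 0.58 and 1.25) lies furthest right in all 3 panels, and DDIT3 (0.65, -0.22 and 0.43) beside it in the left panel.

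The 5 sensor genes were within 1.2-fold in each comparison, and in ADAR2 against control all 5 had log2 ratios below 0. The median log2 ratio of the group was -0.085 in ADAR2 against control, -0.01 with SRSF9 added and -0.17 in ADAR2 plus SRSF9 against control. Over all genes, 7.43% were 1.2-fold higher and 6.45% lower in the first comparison. They were 5.72% and 8.21% in the second, and 13.8% and 12.7% in the third. At such shares, 0 of 5 genes called says little. ATF6, the sensor that becomes a transcription factor after cleavage, had 46.3 CPM in the ADAR2 plus SRSF9 library, 45.4 in the ADAR2 library and 53.0 in the control. Both overexpressing libraries were thus below the control, at 0.873 times (0.842 to 0.906) with both proteins and 0.857 times (0.829 to 0.886) with ADAR2 alone. ERN1, which encodes the kinase and RNase IRE1, had 15.3, 15.5 and 17.3 CPM. EIF2AK3, which encodes PERK, had 11.8, 13.2 and 13.7 CPM, lowest with both proteins. EIF2AK1, the haem-regulated kinase HRI, had 192, 194 and 206 CPM, and EIF2AK4, the amino acid sensor GCN2, 54.3, 53.4 and 54.3 CPM. ATF6 is AT-rich (41.3% GC), and with the GC trend removed its log2 ratios against the control were -0.07 with both proteins and -0.09 with ADAR2 alone. In the same order, those of ERN1 were -0.19 and -0.16, and those of EIF2AK4 were 0.045 and 0.029. EIF2AK2, the double-stranded RNA sensor PKR, is not among the 43 genes and is named for its role. It had 49.1, 49.3 and 51.9 CPM, 0.996 times the ADAR2 level with SRSF9 added (0.959 to 1.03).

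The ATF4/CHOP arm held the largest differences, and they were in few of its genes. Of 18 measured genes, 5 were 1.2-fold higher and 0 lower in ADAR2 against control, 1 was higher and 0 lower with SRSF9 added, and 6 were higher and 1 lower in ADAR2 plus SRSF9 against control. Over all genes, 7.43% were higher and 6.45% lower in the first comparison, 5.72% and 8.21% in the second, and 13.8% and 12.7% in the third. Once the GC trend was removed, 3 genes of the arm were higher in the first, 1 in the second, and 2 higher and 1 lower in the third. The shares of all genes with the trend removed were 5.25% higher and 3.95% lower in the first comparison. They were 4.52% and 8.72% in the second, and 6.95% and 9.33% in the third. The median log2 ratios were 0.12, 0.02 and 0.16. With the GC trend removed they were 0.06, 0.01 and 0.08. The transcripts of this arm are GC-rich, with a median of 57.0% against 48.5% over all genes.

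CHAC1 encodes a glutathione-degrading enzyme induced by ATF4 and CHOP. It had 949 reads in the ADAR2 plus SRSF9 library, 890 in the ADAR2 library and 643 in the control, which is 9.90, 6.63 and 4.16 CPM. The library with both proteins was highest and the control lowest. The ratio was 1.59 for ADAR2 against control (1.44 to 1.77), 1.49 with SRSF9 added (1.36 to 1.64) and 2.38 for ADAR2 plus SRSF9 against control (2.15 to 2.63). Among the 16072 genes measured, 58, 149 and 27 had a higher ratio in these comparisons. Its transcript is GC-rich (62.6%), and with the GC trend removed its log2 ratios were 0.50, 0.51 and 1.03, so that the first was below 1.5-fold and the last remained above 2-fold.

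DDIT3 encodes CHOP, the transcription factor downstream of ATF4. It had 794, 1297 and 952 reads in the ADAR2 plus SRSF9, ADAR2 and control libraries, or 8.28, 9.66 and 6.16 CPM. Here the ADAR2 library was highest, at 1.57 times the control (1.44 to 1.71), and the library with both proteins lay between, at 0.857 times the ADAR2 library (0.784 to 0.937) and 1.34 times the control (1.22 to 1.48). At 49.7% GC the trend left these values as they were (log2 0.65, -0.22 and 0.43 with the trend removed). Exons of DDIT3 overlap those of MBD6 and MARS on the opposite strand, which had 6602 and 27494 reads in the ADAR2 library. The library kit keeps strand, but the strand setting of the counting is not stated, so mixing of reads was not tested.

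SESN2, a stress-induced inhibitor of mTORC1, had 69.3 CPM with both proteins, 70.3 with ADAR2 and 52.9 in the control. Both overexpressing libraries stood above the control alike, at 1.31 times (1.27 to 1.35) and 1.33 times (1.29 to 1.37), and between them the ratio was 0.985 (0.955 to 1.02). DDIT4, another inhibitor of mTORC1, had 94.0, 90.5 and 74.0 CPM, also lowest in the control and here highest with both proteins. Its ratios to the control were 1.27 (1.24 to 1.31) with both proteins and 1.22 (1.19 to 1.25) with ADAR2. With the GC trend removed, the log2 ratios against the control were 0.21 and 0.27 for SESN2 and 0.19 and 0.16 for DDIT4.

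ATF4 itself had 953, 924 and 912 CPM, a ratio of 1.04 with both proteins against the control and 1.01 with ADAR2. Its processed pseudogene copy ATF4P3 had 1962, 4143 and 3994 reads, beside 91393, 124028 and 140960 for ATF4, and reads of such copies can be exchanged with the parent gene. ATF3, a partner and target of ATF4, had 95.6, 104 and 109 CPM, lowest with both proteins. ATF5, which is regulated like ATF4, had 7.95, 8.33 and 7.17 CPM, and its exons overlap NUP62 on the other strand (9743, 14388 and 14069 reads). TRIB3, a pseudokinase that holds back ATF4, had 24.6, 23.3 and 21.8 CPM. Its ratio in ADAR2 against control was 1.07 (1.02 to 1.12).

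The 2 subunits that end the response lay on opposite sides of the control. PPP1R15A, the inducible subunit GADD34 that directs a phosphatase to eIF2, had 66.8, 62.0 and 56.4 CPM, highest with both proteins. PPP1R15B, its constitutive counterpart, had 128, 149 and 164 CPM, lowest with both proteins, at 0.779 times the control (0.763 to 0.796) and 0.860 times the ADAR2 library (0.841 to 0.880). Their GC contents are 58.8% and 43.4%. With the GC trend removed, the log2 ratios of ADAR2 plus SRSF9 against control were 0.07 for PPP1R15A and -0.26 for PPP1R15B.

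The C/EBP factors are known as partners of ATF4. CEBPB had 19.0, 17.4 and 14.8 CPM, 1.28 times the control with both proteins (1.21 to 1.37), and at 66.2% it is the most GC-rich of the 42 genes. With the trend removed its log2 ratio was 0.09. CEBPG had 94.0, 98.6 and 97.7 CPM, within 1.2-fold in all 3 comparisons.

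Among genes of amino acid supply in this arm, SLC7A5 was past 1.2-fold and the others were within it. SLC7A5, the light chain of the large neutral amino acid transporter LAT1, had 201, 189 and 157 CPM, at 1.28 times the control with both proteins (1.255 to 1.303) and 1.203 times with ADAR2 (1.18 to 1.22). SLC3A2, its heavy chain, had 188, 169 and 161 CPM, at 1.16 times the control with both proteins (1.14 to 1.19). The asparagine synthetase gene ASNS, a standard ATF4 target, had 202, 188 and 183 CPM. The highest library was the same for these 3 genes, and the largest of their log2 ratios with the GC trend removed was 0.19 for ASNS. CTH, which makes cysteine, had 18.9, 18.9 and 20.1 CPM. STC2, a secreted glycoprotein of the stress response, had 151, 165 and 139 CPM, highest with ADAR2 alone, and VLDLR had 11.5, 12.2 and 12.6 CPM.

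The 5 genes of serine and one-carbon synthesis had median log2 ratios of 0.04 in ADAR2 against control, 0.09 with SRSF9 added and 0.13 in ADAR2 plus SRSF9 against control. At 1.2-fold 0 of 5 were called in each. Over all genes, 7.43% were higher and 6.45% lower in the first comparison, 5.72% and 8.21% in the second, and 13.8% and 12.7% in the third. At such shares, 0 of 5 genes called says little. Summed, the 5 genes had 1425 CPM with both proteins, 1317 with ADAR2 and 1295 in the control. PSAT1, the second enzyme of serine synthesis, had 183, 160.1 and 159.7 CPM, 1.14 times the ADAR2 library with SRSF9 added (1.12 to 1.17). PHGDH had 721, 657 and 636 CPM, 1.10 times the ADAR2 library (1.09 to 1.11). In both the ADAR2 library lay near the control and the library with both proteins above them. SHMT2, the mitochondrial enzyme that takes the one-carbon unit from serine, had 325, 305 and 296 CPM. PSPH, the last step of serine synthesis, had 26.0, 27.5 and 24.4 CPM, highest with ADAR2, and the mitochondrial folate enzyme gene MTHFD2 had 169.9, 167 and 179 CPM, highest in the control. PSAT1 is AT-rich (42.3% GC), and with the trend removed its log2 ratio of ADAR2 plus SRSF9 against control was 0.31, against 0.20 before.

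The 14 genes of the ER chaperone arm were divided around 0. In ADAR2 against control 7 had log2 ratios above 0 and 7 below, with SRSF9 added 7 and 7, and in ADAR2 plus SRSF9 against control 6 and 8. The medians were 0.02, -0.01 and -0.03. Summed, they had 2295 CPM with both proteins, 2364 with ADAR2 and 2410 in the control.

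CRELD2, a secreted ER stress protein, had the highest ratios of the arm against the control, with 41.8 CPM with both proteins, 37.6 with ADAR2 and 31.3 in the control. Its ratios to the control were 1.33 (1.28 to 1.39) and 1.202 (1.155 to 1.25), and with the GC trend removed its log2 ratios were 0.32 and 0.19. Its exons overlap ALG12 on the opposite strand, which had 1566, 2213 and 2473 reads. SDF2L1, a member of an ER chaperone complex, had 63.9, 55.2 and 49.9 CPM, at 1.28 times the control with both proteins (1.24 to 1.32). This transcript is 65.5% GC, and with the trend removed the log2 ratio was 0.09.

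HSP90B1 and XBP1 lay on the other side, though their windows hold the same ERSE as that of CRELD2. HSP90B1 had 771, 815 and 893 CPM, 0.864 times the control with both proteins (0.856 to 0.872) and 0.912 times with ADAR2 (0.905 to 0.920). XBP1 had 116, 126 and 137 CPM, 0.846 times the control with both proteins (0.827 to 0.866). CALR, also with an ERSE, had 593, 615 and 597 CPM, with ratios of 1.03 in ADAR2 against control, 0.964 with SRSF9 added and 0.994 in ADAR2 plus SRSF9 against control. The carriers of ERSE-II were the ER chaperone gene HYOU1 (147, 143 and 144 CPM), HERPUD1, a factor of ER-associated degradation (52.4, 51.3 and 48.3 CPM), and SDF2L1. HSP90B1 and XBP1 are AT-rich (41.2% and 41.5% GC), and with the trend removed their log2 ratios were -0.08 and -0.12 in ADAR2 plus SRSF9 against control and 0.001 and 0.004 in ADAR2 against control.

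Of the remaining genes of this arm 0 were called at 1.2-fold. PDIA4, a disulfide isomerase, had 251, 249.6 and 242 CPM, and MANF, a secreted factor held in the ER, 77.1, 83.4 and 80.4 CPM. The HSP40 co-chaperones DNAJB9 and DNAJC3 had 11.6, 11.8 and 13.2 CPM and 33.7, 37.8 and 38.8 CPM. DNAJC3 was 0.891 times the ADAR2 level with SRSF9 added (0.853 to 0.932), the lowest ratio of the arm in that comparison. EDEM1, which marks misfolded glycoproteins for disposal, had 39.6, 43.2 and 44.3 CPM. SEL1L and SYVN1, the adaptor and the ubiquitin ligase of one degradation complex, had 31.4, 31.0 and 33.1 CPM and 64.8, 64.5 and 57.6 CPM. SYVN1 exons overlap FAU and MRPL49 in the reference, so its share of those reads was not tested.

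The GC content of the transcript moved with the ratio across the 42 genes as it did across all genes. Spearman's rho between GC content and log2 ratio over the 42 genes was 0.80 in ADAR2 against control, 0.52 with SRSF9 added and 0.78 in ADAR2 plus SRSF9 against control. Over 15603 genes with a GC value it was 0.61, 0.17 and 0.58. These correlations are across genes, which share the same libraries. With the trend removed, rho over the 42 genes was 0.05, 0.41 and 0.39. In the decile of all genes with the highest GC content the median log2 ratio was 0.18 in ADAR2 against control, and in the decile with the lowest it was -0.16. What produced this trend was not tested.

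**Figure D3:**
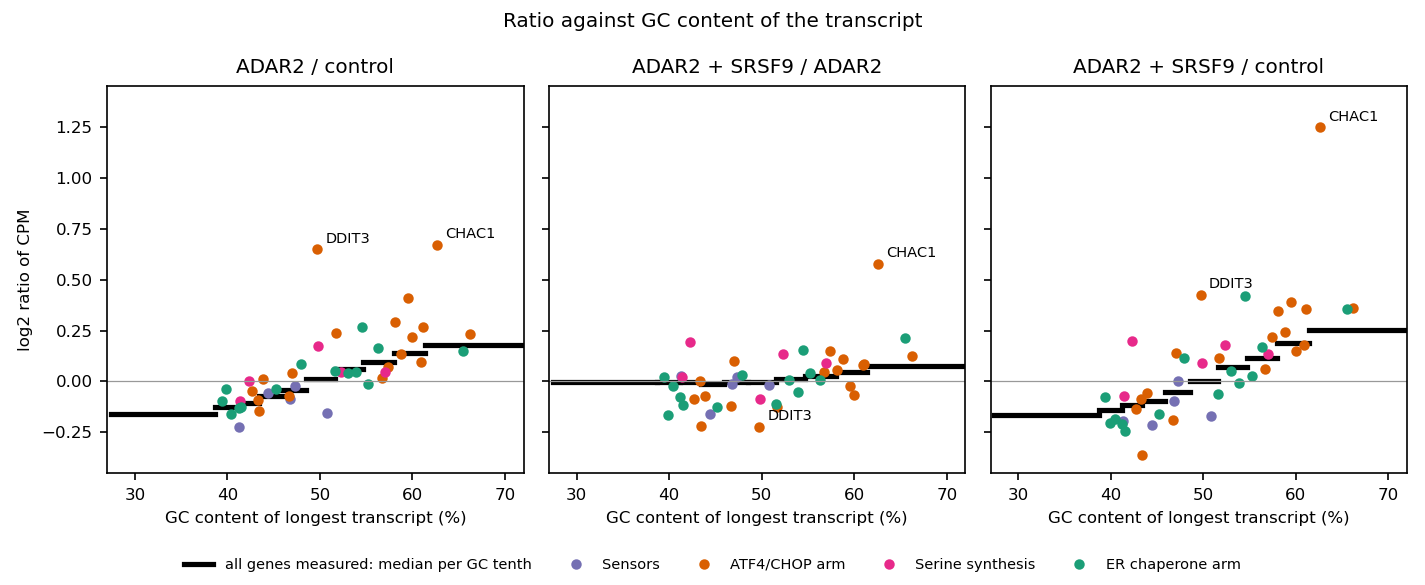
Log2 ratio of CPM against GC content of the longest transcript for the 42 measured genes, coloured by arm, in the 3 comparisons; black bars are medians over all genes measured with a GC value in deciles of GC content, the last cut at the edge of the axis. In the panels against the control most points lie near the black bars; CHAC1 (62.6% GC) lies well above them in all 3 panels, DDIT3 (49.7% GC) in the panels against the control.

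Genes of the same pathway outside the 43 were also counted. Of 39 further genes of the ATF4 axis, 38 were measured. In ADAR2 against control 2 were 1.2-fold higher, INHBE and GDF15, where 7.43% of all genes were higher and 6.45% lower. INHBE, a hormone subunit, had 155, 247 and 195 reads in the ADAR2 plus SRSF9, ADAR2 and control libraries, or 1.62, 1.84 and 1.26 CPM. GDF15, a secreted stress cytokine, had 174, 486 and 398 reads, or 1.815, 3.62 and 2.58 CPM. With SRSF9 added GDF15 was 0.501 times the ADAR2 level (0.419 to 0.597) and the glycine transporter gene SLC6A9 1.26 times (1.16 to 1.36), 1 gene lower and 1 higher. Over all genes 8.21% were lower and 5.72% higher in that comparison. GDF15 is a target of p53 as well as of CHOP. In ADAR2 plus SRSF9 against control 7 were higher and 2 lower. The highest was SLC6A9, at 12.6, 10.1 and 8.63 CPM, and the others were CBS, of cysteine synthesis (477, 424 and 370.5 CPM), INHBE, PCK2, a mitochondrial enzyme that makes phosphoenolpyruvate (42.7, 37.3 and 33.9 CPM), the amino acid transporter genes SLC43A1 (16.9, 16.1 and 13.6 CPM) and SLC1A5 (254, 237 and 209 CPM), and PYCR1, of proline synthesis (194, 179 and 161 CPM). The lower ones were GDF15 and KLHL24, a ubiquitin ligase adaptor (18.9, 21.3 and 25.1 CPM). These counts of 38 stand beside 13.8% of all genes higher and 12.7% lower. After removal of the GC trend the log2 ratios of the 7 were 0.36 for SLC6A9, 0.26 for INHBE, 0.21 for CBS, 0.15 for SLC43A1, 0.13 for PCK2, 0.08 for SLC1A5 and 0.06 for PYCR1, the last 5 of them within 1.2-fold. Those of the lower genes were -0.73 for GDF15 and, within 1.2-fold, -0.23 for KLHL24. INHBE reached 1.2-fold in size after removal but was no longer called, since its counting interval, 1.03 to 1.59 before removal, then included 1. Named for its role and not for its ratio, SLC7A11, the cystine transporter gene, had 12.8, 11.9 and 12.4 CPM. FGF21, the hormone induced by ATF4 in liver, was not measured at 11, 29 and 12 reads. Median log2 ratios of the 38 were 0.03, 0.03 and 0.06 in ADAR2 against control, ADAR2 plus SRSF9 against ADAR2 and ADAR2 plus SRSF9 against control.

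For 38 further genes of ER stress the medians were -0.05, -0.04 and -0.09 in the same order. HSPA5, which encodes BiP, the chaperone that holds the sensors inactive, and is named for that role, had 609 CPM with both proteins, 599.6 with ADAR2 and 666 in the control, at 0.915 times (0.906 to 0.925) and 0.901 times (0.893 to 0.909) the control. With the GC trend removed its log2 ratios against the control were -0.07 and -0.08, from -0.13 and -0.15 before. In ADAR2 plus SRSF9 against control 2 of the 38 were 1.2-fold higher, the ER membrane protein gene WFS1 (33.4, 30.7 and 27.5 CPM) and the ER degradation gene DERL3 (8.85, 8.44 and 7.33 CPM), and 4 lower. The 4 were the HSP70 relative HSPA13 (47.7, 56.8 and 63.3 CPM), the coat protein gene SEC24D (38.1, 43.8 and 49.9 CPM) and the retrieval receptor genes KDELR2 (160.2, 186 and 195 CPM) and KDELR3 (26.3, 29.2 and 31.9 CPM). Over all genes 13.8% were higher and 12.7% lower. After removal of the trend SEC24D stayed past 1.2-fold (log2 -0.32) and the others were within it, at 0.09 for WFS1, 0.08 for DERL3, -0.24 for HSPA13, -0.20 for KDELR2 and -0.21 for KDELR3. In the other 2 comparisons 0 were called. Over all genes 7.43% were higher and 6.45% lower in ADAR2 against control, and 5.72% and 8.21% with SRSF9 added. Of 15 genes of the eIF2 machinery, 1 was called, the adaptor gene NCK1, at 0.803 times the control with both proteins (0.757 to 0.851), where 12.7% of all genes were lower. Its log2 ratio with the GC trend removed was -0.14, within 1.2-fold.

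**Figure D4:**
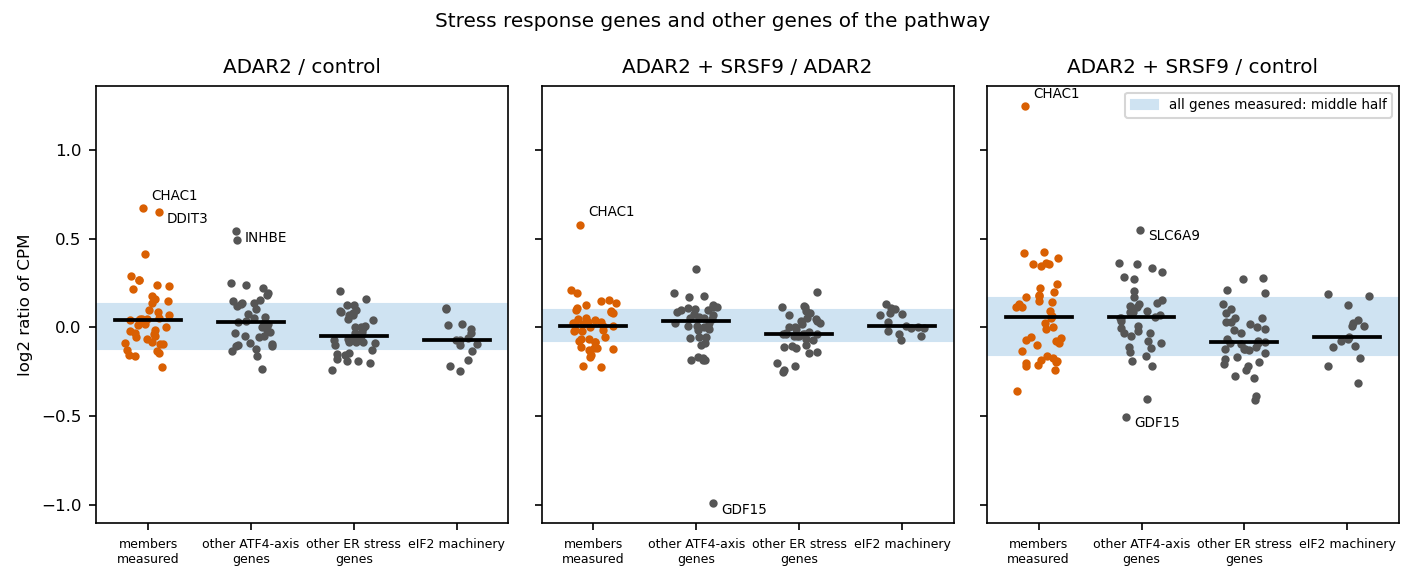
Log2 ratio of CPM for the 42 measured genes (left column of each panel) and for the further genes of the ATF4 axis (38), of ER stress (38) and of the eIF2 machinery (15), in the 3 comparisons; black lines are medians, the blue band is the interquartile range of all genes measured, and horizontal scatter has no meaning. Genes with a log2 ratio of 0.5 or more in either direction are named. GDF15 lies at -0.99 with SRSF9 added and CHAC1 at 1.25 in ADAR2 plus SRSF9 against control.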

How the data were processed

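Total RNA of HEK 293T cells was made into libraries with a strand-keeping kit, per the labels' protocols, which do not say whether poly(A) RNA was selected. The submitters' processing notes name hg19, STAR, Picard, GATK and SAMtools, without roles. How reads were assigned to genes, and whether by strand, is not given in the sources used here. Raw counts of reads per gene, as deposited by the authors, were used for all 3 libraries, 1 per group.

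TMM factors (edgeR 4.0.16, R 4.3.3) were 0.979, 1.01 and 1.01 for the ADAR2 plus SRSF9, ADAR2 and control libraries. CPM is counts per scaled library size in units of 1000000 reads. Log2 ratios used a prior count of 0.5. The 95% intervals treat the reads a gene has in the first-named library, out of its reads in the pair, as a binomial share (exact Clopper-Pearson). No test was possible with 1 library per group. Genes with a mean CPM of 1 or more were measured. A count of 3 reads is 0.0313, 0.0223 and 0.0194 CPM in these libraries. Lengths, GC content and overlaps came from GENCODE v29 (GRCh38), which held all 43 genes; promoter sequences came from RefSeq (GRCh38.p14). The GC trend was the median log2 ratio in 50 bins of GC content over 9594 protein-coding genes with a mean of at least 10 CPM, with a running median over 5 bins. Ratios, intervals and calls were tested on simulated Poisson counts. These hold counting error only, so spread between replicates was not part of that test. Python 3.11.15, numpy 2.4.6, pandas 2.3.3, scipy 1.17.1 and matplotlib 3.10.9 were used.

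The genes and lists were chosen with earlier results of these data known. Genes 1.2-fold apart in any comparison, and the highest and lowest of each arm, are given in full. Other settings were scaling by DESeq2 1.42.0 size factors, by upper quartiles or by library totals, sizes that leave out mitochondrial genes, ADARB1, SRSF9, HBB and HBD, other filters, prior count, thresholds and backgrounds, a mean over genes, and removal of the GC trend.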

Additional observations from a re-analysis of the deposited data

How the results depend on the processing

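A median or a single gene's ratio was taken as moved when it left its counting interval (for a median, the median of the genes' interval bounds). With DESeq2 size factors, upper-quartile scaling, a prior count of 5 or protein-coding genes as background, no count of genes called and no median moved. Among the 9 genes past 1.2-fold, 1 ratio changed sign, that of SDF2L1 in ADAR2 against control, where it is not called (log2 0.15, and -0.04 with the GC trend removed). In ADAR2 against control the 2 genes called became 0 under a minimum mean of 10 CPM, which both genes miss, 0 at 2-fold, 0 with an interval wholly beyond 1.5-fold, 6 at 1.2-fold and 1 with the GC trend removed. The shares of all genes higher and lower were 0.0193% and 0.0676% under that minimum, and 0.0684% and 0.212% at 2-fold. They were 0.137% and 0.292% with the interval beyond 1.5-fold, 7.43% and 6.45% at 1.2-fold, and 0.417% and 0.558% with the trend removed. The median of 0.04 was 0.06 with library sizes lacking mitochondrial genes, ADARB1, SRSF9, HBB and HBD, where the median of all genes was 0.017 against -0.001 before. The mean over the measured genes was 0.067. With SRSF9 added the 0 genes called became 1 without a filter, which was NUPR1 (lower, 0.635 times), 1 at 1.2-fold, and 1 at 1.2-fold with the GC trend removed. The shares of all genes higher and lower in these settings were 5.02% and 4.84%, 5.72% and 8.21%, and 4.52% and 8.72%. Without a filter NUPR1 was also called in ADAR2 against control, higher at 1.60 times (1.14 to 2.25). That made 3 genes of 43 there, beside 3.89% of all genes higher and 5.27% lower. Both calls of NUPR1 rest on 39, 86 and 62 reads in the ADAR2 plus SRSF9, ADAR2 and control libraries. In ADAR2 plus SRSF9 against control the 1 gene called became 0 under a minimum mean of 10 CPM, 9 at 1.2-fold and 5 at 1.2-fold with the GC trend removed, a setting added after the data were seen. The shares of all genes higher and lower were 0.251% and 0.396%, 13.8% and 12.7%, and 6.95% and 9.33%. The median of 0.06 was 0.012 with library totals, where the median of all genes was -0.051 against -0.006 before, and the mean was 0.078. Among the 9 genes past 1.2-fold, 19 of 27 ratios moved when the GC trend was removed and 6 of 27 with library totals. No paired analysis was possible because each group has 1 library. Depth sets the width of the counting intervals, which are widest for the genes with the fewest reads, and the spread between replicates is unknown.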
